A study of Mus musculus with 6 samples.

Results

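The 10 genes described here make, break down or read retinoic acid: Aldh1a1, Aldh1a7, Aldh1a2, Rdh10, Cyp26b1, Rara, Rarb, Rarg, Rxra and Rxrb. They were chosen by gene symbol, and all 10 were found among the 50763 symbols of the deposited table. RNA had been sequenced in bulk from CD34- KSL cells sorted from mouse bone marrow, a population rich in haematopoietic stem cells (HSC) that bears Sca-1 and c-Kit and lacks CD34 and markers of mature lineages. The EGFR-DN group (n = 3 libraries) came from Tal1-tTA+/TRE-EGFR-tr+ mice given no doxycycline, in which the activator tTA, placed under control of the blood gene Tal1, switches on a truncated epidermal growth factor receptor, without its cytoplasmic kinase domain, in addition to the normal one. The EGFR-WT group (n = 3 libraries) came from mice of the same genotype that drank water with 0.2 g/L doxycycline and by the labels had wild-type EGFR alone. Both groups therefore carried both transgenes, and the truncated receptor and the absence of doxycycline cannot be told apart. The sources used here give neither the age and sex of the mice nor whether each library came from its own animal or a pool.

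Cells make retinoic acid from vitamin A in a pair of oxidations. Retinol dehydrogenases such as Rdh10 turn retinol into retinaldehyde, retinaldehyde dehydrogenases of the Aldh1a family turn that into retinoic acid, and cytochrome P450 enzymes of the Cyp26 family remove it. Retinoic acid binds the nuclear receptors Rara, Rarb and Rarg, which sit on DNA as partners of the retinoid X receptors (RXR). In mouse bone marrow, retinoic acid signalling through Rarb and the enzyme Cyp26b1 are known as regulators of dormant HSC.

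Libraries held 24073133 to 36032428 counts, so that the floor of 3 counts lay at 0.0799 to 0.152 CPM, the field's unit of counts relative to library size, here after TMM scaling (trimmed mean of M-values). The library of EGFR-DN replicate 3 stood apart, with 25.4% of its counts in 8 rRNA-like genes against 4.71% to 6.15% in the other libraries. It also had 0.914% of its counts in ribosomal protein genes, against 2.49% to 2.71% in the others. Its highest correlation with another library, in log2 CPM, was 0.942, against 0.986 to 0.989 for the others. Values without it are given where they differ most. Egfr itself had 4022, 4758 and 991 counts in the EGFR-DN libraries and 6 in each EGFR-WT library, the direction the labels call for. Those 6 counts were 0.160 to 0.237 CPM, near the floor, so Egfr RNA was hardly detected in EGFR-WT. All 14 HSC markers examined were detected. Of 12 stromal and endothelial markers 6 averaged under 1 CPM (Lepr, Pdgfra, Cdh5, Stab2, Col1a1 and Col3a1). Among the others, Pecam1 was at 71.9, 69.5 and 143 CPM in EGFR-DN replicates 1 to 3 and 48.4 to 56.8 CPM in EGFR-WT. Pdgfrb was at 54.2, 51.9 and 59.4 CPM in EGFR-DN replicates 1 to 3 and 21.1 to 31.0 CPM in EGFR-WT. The B cell gene Pax5 averaged under 1 CPM, while Cd79b was at 21.4 to 39.6 CPM in EGFR-DN and 26.0 to 31.5 CPM in EGFR-WT.

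No retinoid gene passed the test across all genes. Of the 10, 9 passed the filter on low counts (all but Aldh1a2), and 0 of these 9 had an adjusted p under 0.05 by edgeR's quasi-likelihood test, where 0.00518% of 19313 genes did (Egfr, 1 gene). At an unadjusted p under 0.05 stood 3 of the 9, against 6.69% of all genes tested. Of these Aldh1a1 and Rarb were lower, as were 2.4% of all genes, and Rara was higher, as were 4.3%. The same 3 genes were those whose groups did not overlap, against 17.9% of all genes tested, 8.72% with EGFR-DN below and 9.21% with EGFR-DN above. With the Wald test of DESeq2, which called 0.699% of genes (0.186% as lower), 1 member was called, Aldh1a1. With limma-voom, which called 0 genes (0%) and put 6.15% at an unadjusted p under 0.05, the same 3 members were under it. Without EGFR-DN replicate 3, edgeR called 57 genes (0.286% of 19919) and 0 members.

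**Figure D1:**
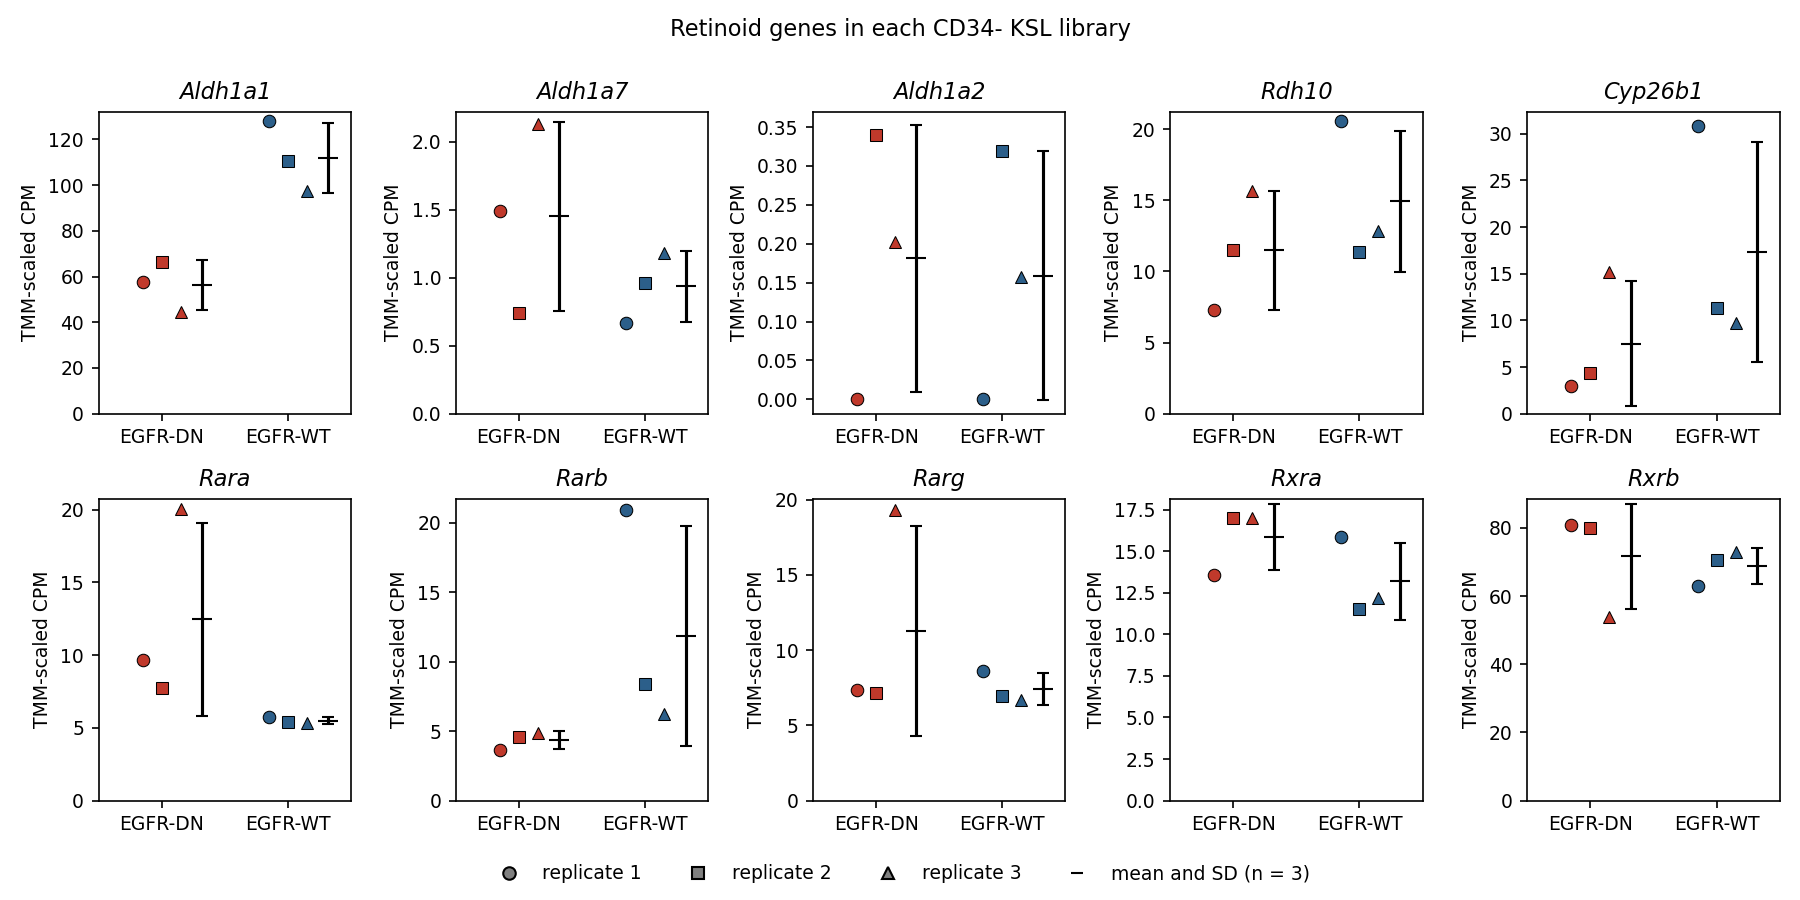
TMM-scaled CPM of each retinoid gene (y axis, linear, with its own scale in each panel) in the 3 EGFR-DN libraries (red) and the 3 EGFR-WT libraries (blue), with replicates as shapes and the mean and SD in black. The groups are separate for Aldh1a1, Rara and Rarb, EGFR-WT replicate 1 is highest for Cyp26b1, Rarb and Rdh10, and EGFR-DN replicate 3 is highest for Rara, Rarg and Aldh1a7.

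Aldh1a1, a retinaldehyde dehydrogenase and one of the enzymes behind the fluorescent aldehyde dehydrogenase assay of stem cells, was the member with the most counts in the EGFR-WT libraries. It was at 57.8, 66.5 and 44.5 CPM in EGFR-DN replicates 1 to 3, against 128, 110.4 and 97.5 CPM in EGFR-WT replicates 1 to 3. Every EGFR-DN library lay below every EGFR-WT library. Aldh1a1 averaged 56.2 ± 11.1 CPM in EGFR-DN and 111.96 ± 15.3 CPM in EGFR-WT (SD, n = 3 each), a log2 fold change of -0.99 (SE 0.20), or 0.503 times the EGFR-WT level. The edgeR adjusted p was 0.642 and the unadjusted p 0.00152. With DESeq2 Aldh1a1 fell by 0.99 on the log2 scale and passed (adjusted p = 0.00531), the 1 of 14 alternatives in which it did. The log2 fold change was -0.85 without EGFR-DN replicate 3 (edgeR adjusted p = 0.0527) and -0.89 without EGFR-WT replicate 1. In bulk RNA, fewer cells that express a gene and less of its RNA per cell cannot be told apart.

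Lists of cell type markers are given beside this difference, and 0 of their genes passed the test. An unadjusted edgeR p under 0.05 was reached by 8 of the 11 myeloid markers, against 6.69% of all genes tested. It was reached by 3 of the 14 HSC, 2 of the 5 B lineage, 1 of the 10 erythroid and megakaryocyte and 2 of the 8 stromal and endothelial markers tested. All 11 myeloid markers had a log2 fold change above 0, and their summed level was 969.6 to 1478 CPM in EGFR-DN and 424 to 616 CPM in EGFR-WT. Most of that sum was Mpo, at 653, 648 and 1261 CPM in EGFR-DN replicates 1 to 3 and 262 to 429 CPM in EGFR-WT. In EGFR-DN replicate 3, Ctsg, Prtn3 and Ltf lay below every EGFR-WT library. Mpo, Elane, Irf8, Ly86 and S100a8 lay above every EGFR-WT library there, and the other myeloid markers lay within the EGFR-WT range. Of the 14 HSC markers, 10 lay below 0, with sums of 1795, 2089 and 4525 CPM in EGFR-DN replicates 1 to 3 and 2359 to 2818 CPM in EGFR-WT. Only EGFR-DN replicate 3 lay above the EGFR-WT range, and the others lay below it. All 5 B lineage markers tested lay above 0, with sums of 43.9 to 61.0 CPM in EGFR-DN and 34.9 to 43.7 CPM in EGFR-WT. Of 10 erythroid and megakaryocyte markers 4 lay below 0 and 6 above, with sums of 791 to 972.5 CPM in EGFR-DN and 604 to 1066 CPM in EGFR-WT. The 8 stromal and endothelial markers tested were evenly split, with sums of 150.1, 154 and 253 CPM in EGFR-DN replicates 1 to 3 and 114.2 to 139 CPM in EGFR-WT. The part of these cells in the Aldh1a1 difference, and in those of the genes below, was not tested.

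Aldh1a7, a mouse paralogue of Aldh1a1 on the same chromosome, was near the lower limit of measurement. It had 51, 26 and 42 counts in EGFR-DN replicates 1 to 3, and 21, 36 and 30 counts in EGFR-WT replicates 1 to 3. The groups overlapped, at 1.45 ± 0.697 CPM in EGFR-DN and 0.936 ± 0.259 CPM in EGFR-WT (SD, n = 3 each; log2 fold change 0.62, SE 0.48, edgeR adjusted p = 0.700). The log2 fold change was 0.25 without EGFR-DN replicate 3, 0.41 without EGFR-WT replicate 1 and 0.93 without EGFR-DN replicate 2. The 100 bases before the start sites of these genes are shown because they are nearly alike while the transcripts differ widely in level. They come from RefSeq on build GRCm38.p6, at chr19:20601868-20601967 on the plus strand for the downstream Aldh1a1 start site and at chr19:20727557-20727656 on the minus strand for Aldh1a7, each 5′ to 3′ with the bases that differ in capitals.
Aldh1a1: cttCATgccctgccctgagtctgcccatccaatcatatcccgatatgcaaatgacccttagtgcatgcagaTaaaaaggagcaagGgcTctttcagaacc
Aldh1a7: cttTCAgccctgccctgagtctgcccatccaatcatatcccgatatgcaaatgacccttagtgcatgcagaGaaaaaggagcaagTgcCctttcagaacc
Of these 100 positions 94 were identical. An upstream Aldh1a1 start site also had a window, and the one shown was picked for its greater likeness to Aldh1a7. Which start site these cells used was not tested. The transcripts share few 75-base reads, 50 of the 1992 possible from Aldh1a7 (2.51%) and of the 4934 possible from Aldh1a1 (1.01%). The 4934 come from all annotated Aldh1a1 transcripts, whereas its longest coding transcript has 2358 bases, so the shared part of coding reads could be larger. At even coverage over all 4934, the 1.01% would be 8.86 to 23.7 counts in EGFR-DN and 25.0 to 41.8 counts in EGFR-WT. These values, which could be too low, are as many as or more than Aldh1a7 had in some libraries. How the authors' counting assigned such reads is not given in the sources used here, so the level of Aldh1a7 is uncertain. Aldh1a7 made up 2.51%, 1.10% and 4.57% of the pair's counts in EGFR-DN replicates 1 to 3, against 0.518%, 0.862% and 1.20% in EGFR-WT replicates 1 to 3. The EGFR-DN libraries averaged 2.73% ± 1.75 and the EGFR-WT libraries 0.860% ± 0.340 (SD, n = 3 each), and the difference did not pass an exact two-sided permutation test over libraries (p = 0.2, where the smallest possible p is 0.1). The difference of 1.87 percentage points was 0.943 without EGFR-DN replicate 3.

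Aldh1a2, the retinaldehyde dehydrogenase best known from embryonic development, had 0, 12 and 4 counts in EGFR-DN replicates 1 to 3 and likewise 0, 12 and 4 in EGFR-WT replicates 1 to 3. It did not pass the filter on low counts. A count of 0 allows up to 0.0875 CPM in EGFR-DN replicate 1 and 0.0953 CPM in EGFR-WT replicate 1. Among the Aldh1a genes, nearly all counts were thus those of Aldh1a1 in both groups.

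Rdh10, the retinol dehydrogenase that makes most retinaldehyde in the mouse embryo, was at 7.26, 11.5 and 15.7 CPM in EGFR-DN replicates 1 to 3, against 20.6, 11.4 and 12.8 CPM in EGFR-WT replicates 1 to 3. The groups overlapped, and the highest value was that of EGFR-WT replicate 1. The log2 fold change was -0.38 (SE 0.34, edgeR adjusted p = 0.718), and it was -0.67 without EGFR-DN replicate 3, -0.14 without EGFR-DN replicate 1 and -0.09 without EGFR-WT replicate 1.

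Cyp26b1, which oxidises retinoic acid, had the widest spread within each group, relative to its mean, of the 9 genes tested. It was at 3.00, 4.37 and 15.2 CPM in EGFR-DN replicates 1 to 3, against 30.9, 11.3 and 9.70 CPM in EGFR-WT replicates 1 to 3. EGFR-DN replicates 1 and 2 lay below all EGFR-WT libraries, and replicate 3, the rRNA-rich one, lay between EGFR-WT replicates 1 and 2. The log2 fold change was -1.22 (SE 0.70, edgeR adjusted p = 0.69). It was -2.23 without EGFR-DN replicate 3 (adjusted p = 0.152) and -0.51 without EGFR-WT replicate 1 (adjusted p = 0.912), so its size rests on those libraries. The counts of Aldh1a1 over those of Cyp26b1, a ratio chosen after its values were seen, were 19.2, 15.2 and 2.93 in EGFR-DN replicates 1 to 3 and 4.15, 9.79 and 10.0 in EGFR-WT replicates 1 to 3, and the groups overlapped.

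**Figure D2:**
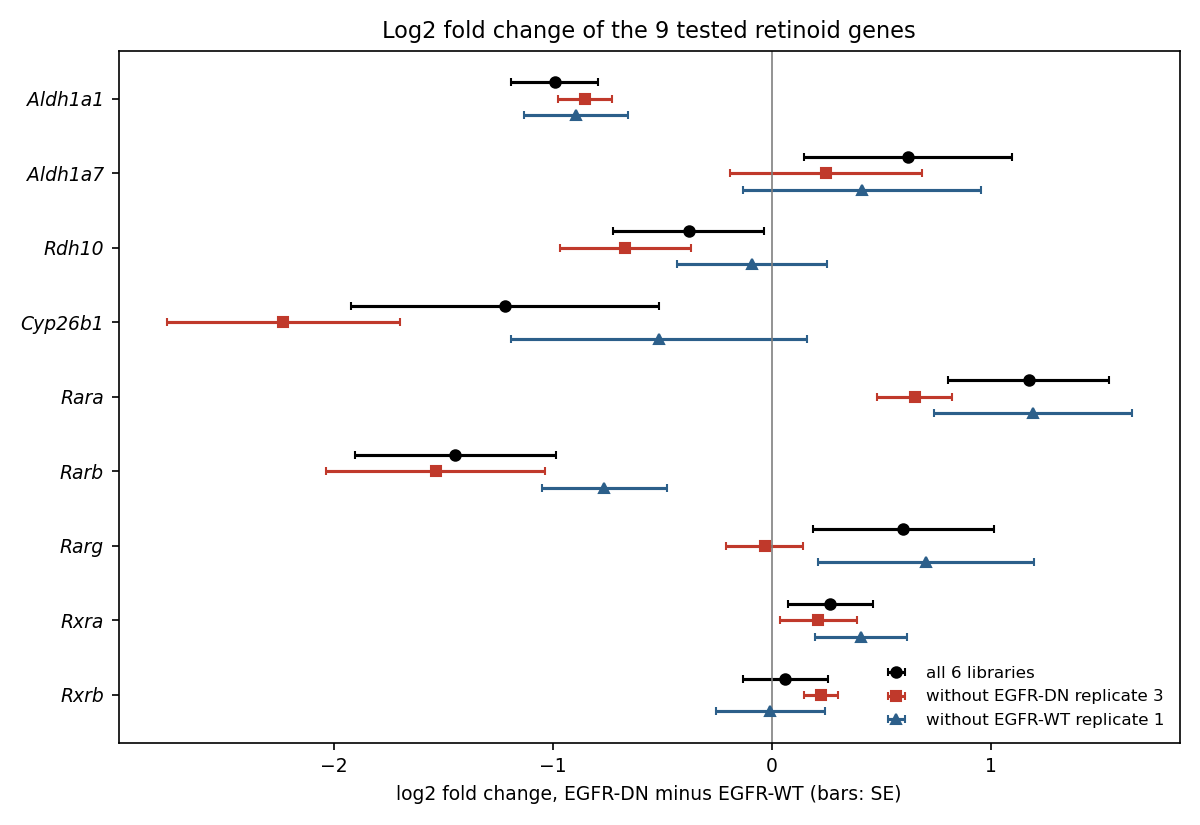
Log2 fold change (x axis, EGFR-DN minus EGFR-WT, bars show the SE) of the 9 retinoid genes tested, from all 6 libraries (black), without EGFR-DN replicate 3 (red) and without EGFR-WT replicate 1 (blue). Aldh1a1 stays between -0.99 and -0.85, whereas Cyp26b1 spans -2.23 to -0.51 and Rarg is at -0.033 without EGFR-DN replicate 3.

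Rarb, a retinoic acid receptor whose own gene is a known direct target of retinoic acid, had the largest fold difference of the members in either direction, by the fit over all libraries. It was at 3.62, 4.57 and 4.87 CPM in EGFR-DN replicates 1 to 3, against 20.9, 8.37 and 6.27 CPM in EGFR-WT replicates 1 to 3. The EGFR-DN libraries lay close together and below all EGFR-WT libraries, among which replicate 1 stood far above the others. Rarb averaged 4.35 ± 0.653 CPM in EGFR-DN and 11.8 ± 7.90 CPM in EGFR-WT (SD, n = 3 each), a log2 fold change of -1.45 (SE 0.46) or 0.367 times the EGFR-WT level. It did not pass (edgeR adjusted p = 0.69, unadjusted p = 0.0160). The value was -1.54 without EGFR-DN replicate 3 and -0.77 without EGFR-WT replicate 1.

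Rarb was also the 1 member whose promoter window held a paired nuclear receptor half-site. Its RefSeq window on build GRCm38.p6 is shown for that reason, as the 250 bases before the start site at chr14:16575477-16575726 on the minus strand, 5′ to 3′ with the match in capitals.
Rarb: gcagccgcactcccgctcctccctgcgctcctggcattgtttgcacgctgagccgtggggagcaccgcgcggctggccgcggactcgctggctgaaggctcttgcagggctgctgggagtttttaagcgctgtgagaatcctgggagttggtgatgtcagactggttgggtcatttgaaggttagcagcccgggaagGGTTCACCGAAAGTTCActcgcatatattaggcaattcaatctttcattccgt
The search took any of the half-sites AGGTCA or AGTTCA or GGTTCA or GGGTCA followed by another of them in the same direction after 1, 2 or 5 bases, on both strands. In Rarb the match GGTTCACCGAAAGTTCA, with 5 bases between its half-sites, lay at bases -53 to -37, counted back from -1 just before the start site. Such pairs 5 bases apart were found in 0.0974% of 32851 windows of all genes, pairs 2 apart in 0.268% and pairs 1 apart in 0.222%. RefSeq windows existed for 9 of the 10 members (all but Rdh10), 16 in all, and no other window held a match. A match is a string of letters in a window of 300 bases and does not show binding.

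The 3′ part of Rarb overlaps the DNA topoisomerase gene Top2b on the opposite strand, with 1793 exon bases shared in the GENCODE M21 annotation, and the libraries did not mark strand. Top2b had far more counts, at 229, 207 and 154 CPM in EGFR-DN replicates 1 to 3 and 207, 216 and 203 CPM in EGFR-WT replicates 1 to 3, and its groups overlapped (log2 fold change -0.08, SE 0.19). Counts of Rarb over those of Top2b were 0.0158, 0.0221 and 0.0317 in EGFR-DN replicates 1 to 3. In EGFR-WT replicates 1 to 3 they were 0.101, 0.0388 and 0.0309. The groups overlapped in this ratio, which has no test. Reads of the shared bases could have been counted to either gene or dropped, which was not tested.

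Rara, the receptor isotype with a broad role in myeloid cells and the gene rearranged in human promyelocytic leukaemia, lay the other way. It was at 9.65, 7.72 and 20.0 CPM in EGFR-DN replicates 1 to 3, against 5.78, 5.38 and 5.36 CPM in EGFR-WT replicates 1 to 3. Every EGFR-DN library lay above the 3 tightly grouped EGFR-WT libraries. Rara averaged 12.5 ± 6.62 CPM in EGFR-DN and 5.51 ± 0.236 CPM in EGFR-WT (SD, n = 3 each). The log2 fold change was 1.17 (SE 0.37), or 2.25 times the EGFR-WT level, and it did not pass (edgeR adjusted p = 0.69, unadjusted p = 0.0149). Without EGFR-DN replicate 3, the highest library, it was 0.65 (adjusted p = 0.179).

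Rarg, the isotype linked to HSC self-renewal in mice, was at 7.35, 7.18 and 19.3 CPM in EGFR-DN replicates 1 to 3, against 8.61, 6.96 and 6.66 CPM in EGFR-WT replicates 1 to 3. EGFR-DN replicate 3 alone stood above the EGFR-WT range. The log2 fold change was 0.60 (SE 0.41, edgeR adjusted p = 0.69) with all libraries and -0.033 without EGFR-DN replicate 3.

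Within a library, the make-up of the receptor counts does not depend on scaling. Rarb took 17.5%, 23.5% and 11.0% of the summed Rara, Rarb and Rarg counts in EGFR-DN replicates 1 to 3, against 59.2%, 40.4% and 34.3% in EGFR-WT replicates 1 to 3. The lowest EGFR-WT share had an exact 95% binomial interval of 30.0% to 38.8%, above the interval of the highest EGFR-DN share, 20.3% to 26.8% (counting error only). The share averaged 17.3% ± 6.23 over EGFR-DN libraries and 44.6% ± 13.0 over EGFR-WT libraries (SD, n = 3 each), with p = 0.1 in an exact two-sided permutation test, the smallest p that 3 against 3 libraries allow. Leaving out 1 library at a time, the difference in mean share ran from -32.5 to -20.0 percentage points.

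Rara took 46.8%, 39.7% and 45.3% in EGFR-DN replicates 1 to 3, against 16.4%, 26.0% and 29.3% in EGFR-WT replicates 1 to 3. Rara, rather than Rarb, thus had the more counts in each EGFR-DN library, and Rarb in each EGFR-WT library, with a count ratio of Rarb over Rara of 0.243 to 0.592 in EGFR-DN and 1.17 to 3.61 in EGFR-WT. This ratio was chosen after its values were seen and has no test. The share of Rarg was 38.7% ± 4.33 over EGFR-DN libraries and 31.5% ± 6.28 over EGFR-WT libraries (SD, n = 3 each; exact permutation p = 0.2), and its groups overlapped. Its difference of 7.26 percentage points was 3.73 without EGFR-WT replicate 1 and 4.79 without EGFR-DN replicate 3. The summed level of the 3 receptors was 20.6, 19.5 and 44.2 CPM in EGFR-DN replicates 1 to 3 and 35.3, 20.7 and 18.3 CPM in EGFR-WT replicates 1 to 3. In this sum the groups overlapped, while they were separate in the shares of Rarb and Rara.

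**Figure D3:**
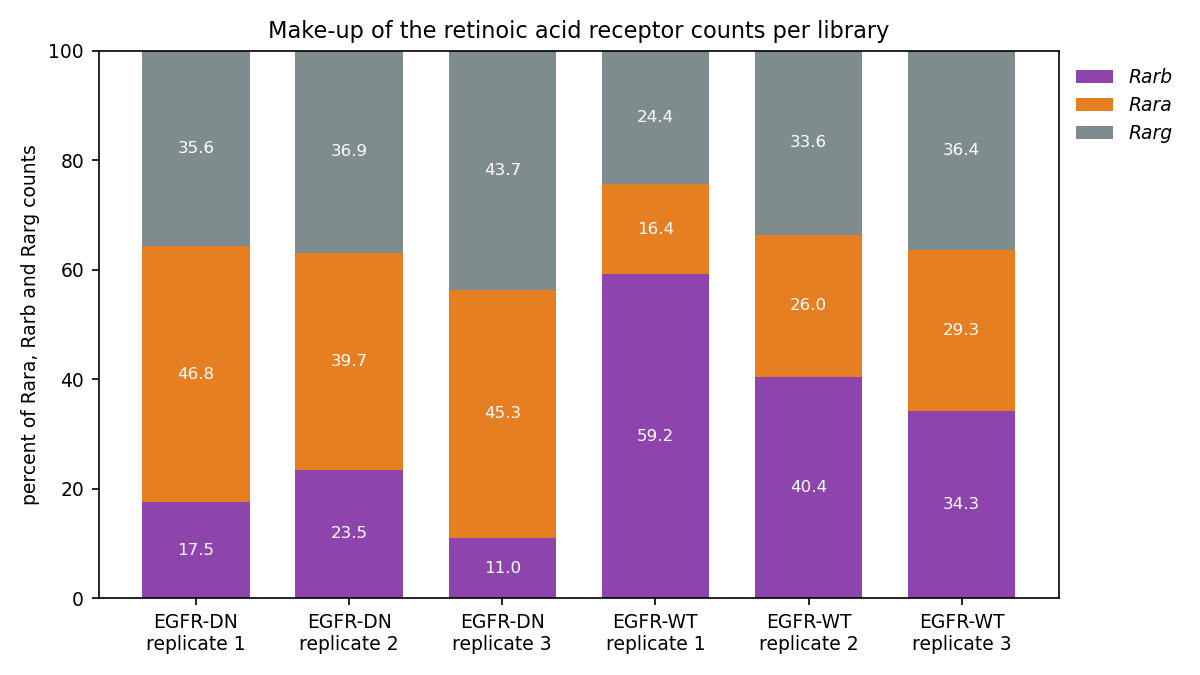
Share of the summed Rara, Rarb and Rarg counts (y axis, percent) taken by each gene in each library (x axis), with the 3 EGFR-DN libraries on the left and the 3 EGFR-WT libraries on the right. Rarb (purple) takes at most 23.5% in EGFR-DN and at least 34.3% in EGFR-WT, and Rara (orange) at least 39.7% in EGFR-DN and at most 29.3% in EGFR-WT.

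The RXR genes, whose proteins pair with retinoic acid receptors and with several other nuclear receptors, showed smaller differences. Rxra was at 13.6, 17.0 and 17.0 CPM in EGFR-DN replicates 1 to 3, against 15.8, 11.5 and 12.2 CPM in EGFR-WT replicates 1 to 3 (log2 fold change 0.27, SE 0.20, edgeR adjusted p = 0.697). Rxrb was at 80.9, 80.0 and 54.0 CPM in EGFR-DN replicates 1 to 3, against 62.8, 70.5 and 72.9 CPM in EGFR-WT replicates 1 to 3 (log2 fold change 0.06, SE 0.19, edgeR adjusted p = 0.899). The groups overlapped for both genes, and EGFR-DN replicate 3 was the lowest library for Rxrb. The direction for Rxrb flips to -0.029 when libraries are scaled by their size alone, and it was 0.22 without EGFR-DN replicate 3. Rxrb took 81.4% ± 4.88 of the pair's counts over EGFR-DN libraries and 83.8% ± 3.42 over EGFR-WT libraries (SD, n = 3 each; exact permutation p = 0.5).

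Per length of transcript, the genes spanned a wide range of levels. In EGFR-DN the order of the mean levels was Rxrb at 28.2 ± 6.04, Aldh1a1 at 25.5 ± 5.02, Rxra at 6.09 ± 0.754, Rara at 3.98 ± 2.12, Rarg at 3.98 ± 2.46, Rdh10 at 3.20 ± 1.17, Cyp26b1 at 1.80 ± 1.60, Rarb at 1.48 ± 0.223, Aldh1a7 at 0.703 ± 0.337 and Aldh1a2 at 0.0800 ± 0.0756 CPM per kilobase (SD, n = 3). There the ranges overlapped between Rxrb and Aldh1a1 and between neighbours from Rxra through Rarb. In EGFR-WT the order of the mean CPM per kilobase was Aldh1a1 at 50.8 ± 6.95, Rxrb at 27.1 ± 2.06, Rxra at 5.07 ± 0.887, Rdh10 at 4.16 ± 1.38, Cyp26b1 at 4.15 ± 2.83, Rarb at 4.04 ± 2.69, Rarg at 2.61 ± 0.370, Rara at 1.76 ± 0.0756, Aldh1a7 at 0.453 ± 0.125 and Aldh1a2 at 0.0703 ± 0.0706 (SD, n = 3). The ranges of neighbours overlapped from Rxra through Rarg, so the order within that stretch is not settled (by the length of all exons together Rxra came after Rdh10, Rarb and Cyp26b1), while the other neighbours were separate. As a ratio of counts, which no scaling changes, Aldh1a1 over Rxrb was 0.714 to 0.830 in the EGFR-DN libraries and 1.34 to 2.04 in the EGFR-WT libraries, a comparison chosen after its values were seen.

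**Figure D4:**
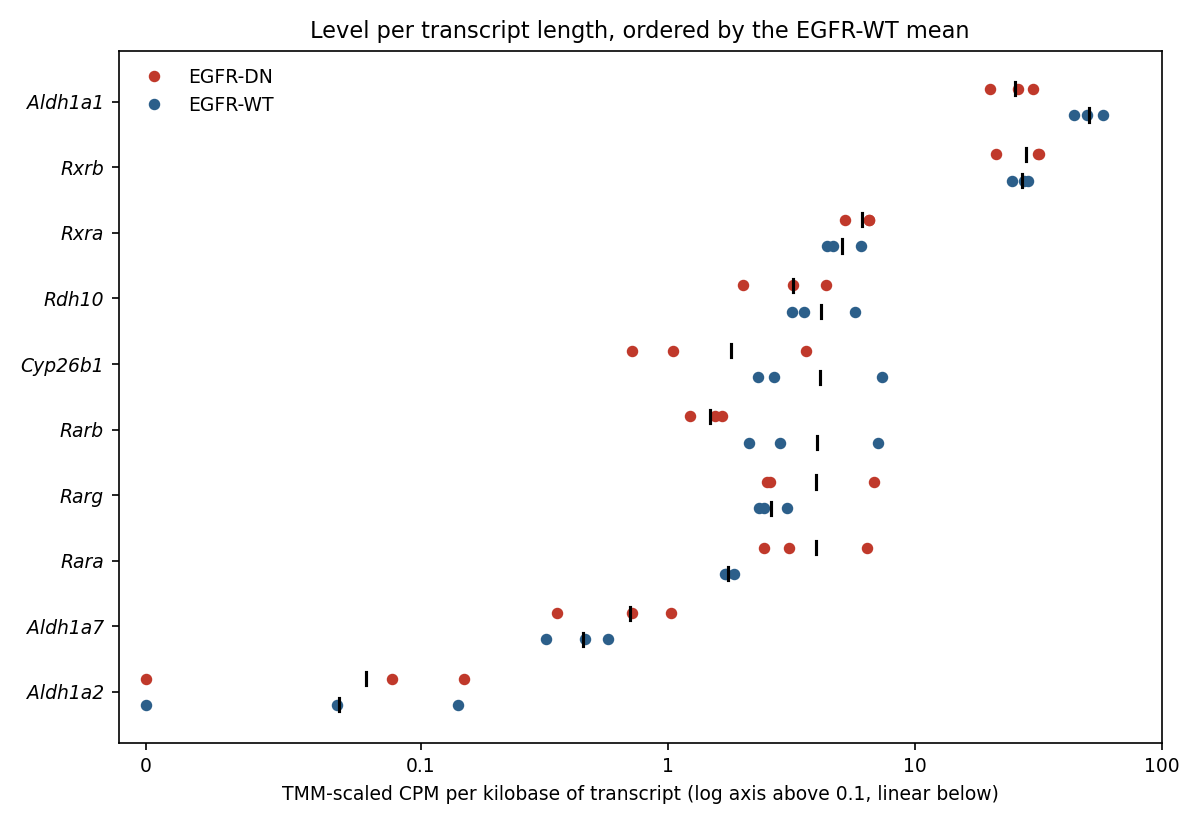
TMM-scaled CPM per kilobase of transcript (x axis, logarithmic above 0.1 and linear below) of the 10 genes, ordered by their EGFR-WT mean, in EGFR-DN libraries (red, upper row of each gene) and EGFR-WT libraries (blue, lower row), with means as black bars. Aldh1a1 is at 20.2 to 30.1 in EGFR-DN and 44.2 to 58.1 in EGFR-WT, whereas Aldh1a2 reaches at most 0.150 in any library.

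The 5 genes whose profile over the 6 libraries was most like that of Aldh1a1, by root mean square difference of centred log2 CPM among 11146 genes, were Slc24a5, a cation exchanger gene, at 0.07, Gng11, a G protein gamma subunit, at 0.11, the Rab GTPase gene Rab40b at 0.12, the ninein-like gene Ninl at 0.13 and Prr5l, which encodes an mTORC2-associated protein, at 0.13. Gng11 was at 48.6 ± 10.5 CPM in EGFR-DN and 102 ± 23.8 CPM in EGFR-WT (SD, n = 3 each). No other member was among them.

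Other genes of the pathway were read from lists, and 0 of their members passed the test over all genes by edgeR or DESeq2. The median log2 fold change of all genes tested was 0.01. In uptake, carriage and storage of retinoids, 7 of 16 listed genes were abundant enough to test, 6 of them below 0, with a median of -0.33 (-0.10 without EGFR-DN replicate 3). Of these Lpl and Lrp1 had an unadjusted p under 0.05. Groups did not overlap for 2 of the 7 with EGFR-DN below and 1 with EGFR-DN above, against 8.72% and 9.21% of all genes tested. The lipoprotein lipase gene Lpl was at 7.01 ± 1.71 CPM in EGFR-DN and 13.3 ± 3.95 CPM in EGFR-WT (log2 fold change -0.93, SE 0.29). Lrp1, a lipoprotein receptor gene, was at 4.10 ± 1.34 CPM in EGFR-DN and 1.77 ± 0.183 CPM in EGFR-WT (1.21, SE 0.34). Stra6, the retinol-uptake receptor gene, and Ttr, the plasma carrier transthyretin, had no counts in any library.

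For the enzymes beside the members, medians lay near 0 without EGFR-DN replicate 3. Of 18 retinol and retinaldehyde oxidoreductases 9 were tested, 5 below 0, with a median of -0.19 (-0.01 without EGFR-DN replicate 3) and 0 at an unadjusted p under 0.05. Groups did not overlap for 4 of the 9 with EGFR-DN below and 0 with EGFR-DN above, against 8.72% and 9.21% of all genes tested. The oxidoreductases named by the smallest p were Rdh14 (-0.44, SE 0.21), Rdh11 (-0.38, SE 0.26) and Dhrs4 (-0.30, SE 0.22), which reduce or oxidise retinoids. They were at -0.26, -0.14 and -0.10 without EGFR-DN replicate 3. Dhrs4 was at 70.9, 68.7 and 41.8 CPM in EGFR-DN replicates 1 to 3, against 72.8, 76.7 and 74.5 CPM in EGFR-WT replicates 1 to 3. None of 6 other enzymes of retinoic acid synthesis and breakdown, Aldh1a3, Cyp26a1 and Cyp26c1 among them, was abundant enough to test. Of 14 other aldehyde dehydrogenases, all tested, 8 lay below 0 with a median of -0.03 and 0 at an unadjusted p under 0.05. Groups did not overlap for 3 of the 14 with EGFR-DN below and 0 with EGFR-DN above, against the same shares of all genes. Among the 14, Aldh6a1 of valine breakdown was at -0.31 (SE 0.14), the lysine-pathway enzyme Aldh7a1 at -0.45 (SE 0.26) and Aldh5a1, which oxidises succinic semialdehyde, at -0.36 (SE 0.25). Without EGFR-DN replicate 3 Aldh6a1 was at -0.25, Aldh7a1 at -0.20 and Aldh5a1 at -0.17. The difference of Aldh1a1 from them was not tested.

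Among receptor partners and coregulators, differences were mostly smaller without EGFR-DN replicate 3. Of 18 other RXR and partner receptors 14 were tested, 9 above 0, with a median of 0.16 (-0.02 without that library) and 1 lower at an unadjusted p under 0.05. The fatty acid receptor gene Ppard (1.11, SE 0.57) and the immediate early receptor gene Nr4a1 (0.46, SE 0.28) were both at 0.13 without EGFR-DN replicate 3. All 16 coregulators were tested and 15 lay above 0, with a median of 0.52 that was 0.06 without EGFR-DN replicate 3. The coactivator genes Ncoa3 (0.72, SE 0.34) and Ep300 (0.81, SE 0.41) and the histone methyltransferase gene Nsd1 (0.60, SE 0.30) were at 0.21, 0.13 and 0.16 without it. Ep300 was at 134, 134 and 374 CPM in EGFR-DN replicates 1 to 3, against 115.4, 124 and 126 CPM in EGFR-WT replicates 1 to 3. Groups did not overlap for 4 of the 16 coregulators with EGFR-DN above and 0 below, against 9.21% and 8.72% of all genes tested. Of the 14 partner receptors tested, 0 were separate in either direction.

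Genes known to respond to retinoic acid in one cell type or another lay on both sides of 0. Of 20 listed 12 were tested, 5 below and 7 above 0, with a median of 0.18 (-0.17 without EGFR-DN replicate 3), and 5 with an unadjusted p under 0.05, of which 2 were lower. Tgm2, the tissue transglutaminase gene, was at 93.7, 135 and 129.7 CPM in EGFR-DN replicates 1 to 3, against 285, 197 and 151 CPM in EGFR-WT replicates 1 to 3 (log2 fold change -0.82, SE 0.27; -0.89 without EGFR-DN replicate 3). Its groups did not overlap, and as for Rarb the highest library was EGFR-WT replicate 1. The gut-homing receptor gene Ccr9 was at 2.54 ± 0.845 CPM in EGFR-DN and 1.14 ± 0.228 CPM in EGFR-WT (1.15, SE 0.38). The integrin gene Itga4 was at 196, 179 and 555 CPM in EGFR-DN replicates 1 to 3, against 142, 135 and 148 CPM in EGFR-WT replicates 1 to 3 (1.13, SE 0.44; 0.40 without EGFR-DN replicate 3). Groups did not overlap for 3 of the 12 with EGFR-DN below, Tgm2 among them, and for 3 with EGFR-DN above, Ccr9 and Itga4 among them. Of all genes tested, 8.72% were separate with EGFR-DN below and 9.21% with EGFR-DN above. Stra8, a retinoic acid-induced germ cell gene, had no counts.

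**Figure D5:**
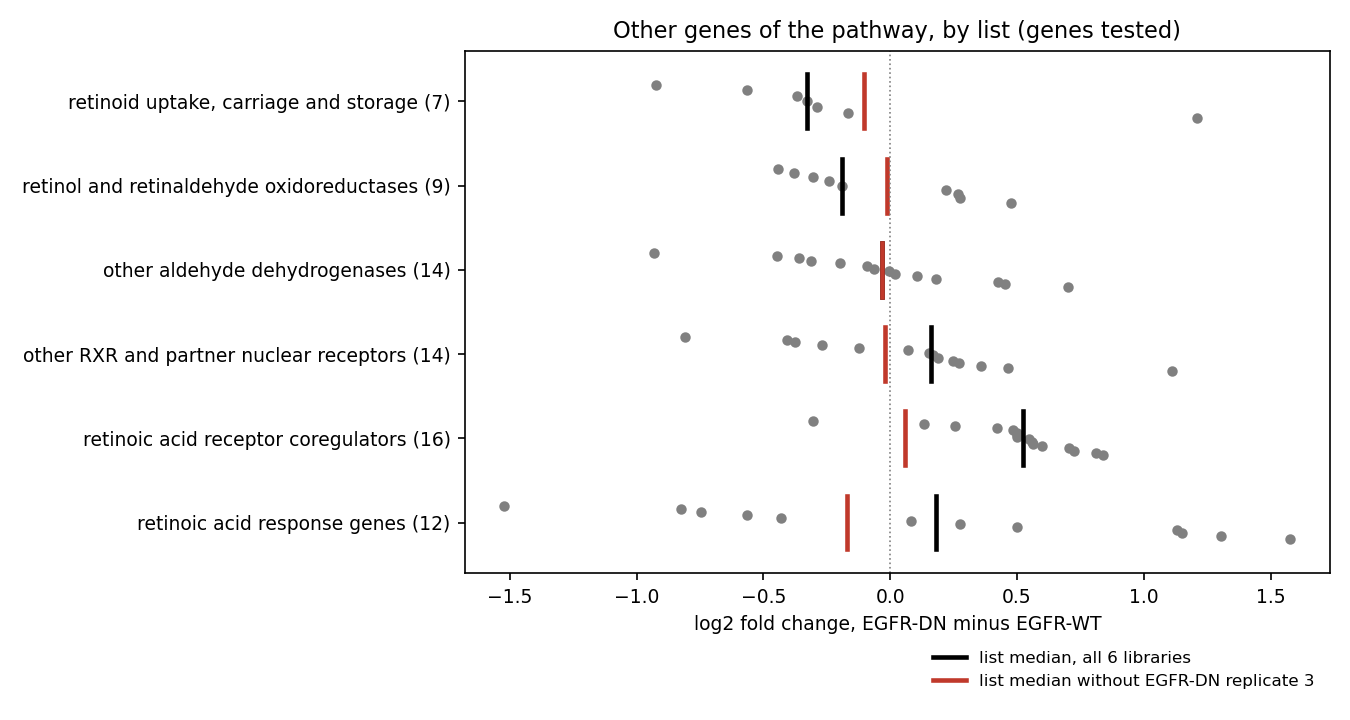
Log2 fold change (x axis, EGFR-DN minus EGFR-WT) of each tested gene (grey points) in 6 lists of the retinoid pathway, with the list median from all 6 libraries (black) and without EGFR-DN replicate 3 (red). The coregulator median is at 0.52 with and 0.06 without that library.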

How the data were processed

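The 3 EGFR-DN and 3 EGFR-WT libraries were grouped by their labels. Per the labels' protocols, 10 ng of RNA per library was reverse transcribed from oligo(dT) with SMART-Seq V4, and Nextera XT libraries, which do not mark strand, were read once over 75 bases. The deposited values are the authors' estimated counts for each gene symbol, without scaling, and 79.4% of them are whole. The submitters' processing notes list DRAGEN, DESeq2 1.40.2, R 4.3.1 and build mm39, without the role of each, and the sources used here give no annotation or strand setting. The planned test assumed whole counts, so the values were rounded. The table held 0 columns of other samples and 0 rows without a gene name.

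Genes were filtered with filterByExpr (19313 left), scaled by TMM and compared with edgeR 4.0.16 (two-sided quasi-likelihood test, R 4.3.3), with Benjamini-Hochberg adjustment over all genes and 0.05 as the threshold. A positive log2 fold change means higher in EGFR-DN, and its SE is its size over the root of the F statistic. Alternatives used DESeq2 1.42.0 and limma 3.58.1. The scripts were tested on simulated data. Shares of counts were compared by exact permutation over libraries. Intervals and floors cover counting error only. No pair of libraries was a duplicate (smallest chi-square per degree of freedom 14.9). Where the labels do not name separate animals, p-values measure the spread between libraries, which may be technical.

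Transcript lengths are the median of the coding transcripts in GENCODE M21. That annotation and RefSeq's sequences are of GRCm38, not the build of the counts, so coordinates are given for the sequences alone. The members and lists were chosen with earlier results of these data known. Named genes are the members, Egfr, per list the 3 with the smallest p among those averaging at least 1 CPM, and the 5 genes nearest Aldh1a1 among those averaging at least 4 CPM, and some of them are not reported here. Top2b, Ttr, Stra6 and Stra8, the marker genes and the enzymes too low to test were named after their values were seen.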

Additional observations from a re-analysis of the deposited data

How the results depend on the processing

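Across 14 alternatives to the edgeR fit, Aldh1a1, Rdh10, Cyp26b1 and Rarb stayed below 0 and Rara, Rxra and (in the 13 that tested it) Aldh1a7 above 0. Exceptions in direction were Rxrb, at -0.029 with library size alone and from -0.039 to 0.22 leaving out 1 library at a time, and Rarg, from -0.033 to 0.83. Library size alone moved the median of all genes by -0.11. Members past the threshold numbered 1 with the DESeq2 Wald test and 0 in each of the other 13 alternatives. Genes past it numbered 135 with DESeq2, 0 with limma-voom, and from 0 (without any 1 of the EGFR-WT libraries) to 57 (without EGFR-DN replicate 3), against 1. The Rxrb share of the RXR pair differed by -2.44 points, and from -4.56 to 0.23 leaving out 1 library. The adjusted p of Aldh1a1 ranged from 0.00531 to 0.912, that of Rarb from 0.152 to 0.912 and that of Rara from 0.178 to 0.912. The response list median was -0.23 with no filter.

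The labels number replicates alike in both groups, but same-numbered libraries did not deviate together (correlations -0.024, 0.054 and 0.064), and EGFR-DN replicate 1 was closest to EGFR-WT replicate 2 (0.101). With the replicate number as a block, 1 gene and 0 members passed, with Aldh1a1 at -1.004, Rarb at -1.25 and Rara at 1.05. Depth limits Aldh1a2 and Aldh1a7, where a few counts set each value.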
